A study of Mus musculus with 2 samples.

Results

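Genes of lipid uptake and fatty acid binding, listed by name for their roles, were followed through the postnatal retinal endothelium. They were *Apoe*, *Lpl*, *Gpihbp1*, *Lrp8*, *Vldlr*, *Scarb1*, *Cd36*, *Fabp4*, *Fabp5* and *Fabp7*, and all 10 had a row among the 22687 gene symbols of the P6 library and the 21736 of the P15 library. Retinal cells of wild-type C57BL/6 mice at postnatal day 6 (P6) and day 15 (P15) were sorted by FACS as CD31+ CD45- cells, which keeps endothelium and removes most blood cells, and 1 droplet library was sequenced per age. The labels give neither library a transgene or a treatment, and whether animals were pooled is not given in the sources used here. With 1 library per age, age and library cannot be told apart, so differences between P6 and P15 below are differences between 2 libraries, given with counting intervals and no test.

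Lipids reach tissue from blood along several routes that cross the endothelium. Lipoprotein lipase, carried and anchored at the capillary surface by GPIHBP1, frees fatty acids from triglyceride-rich lipoproteins, and CD36 and the fatty acid binding proteins of the FABP family take them up and carry them. Receptors of the lipoprotein receptor family bind the lipoprotein particles themselves, often through apolipoprotein E, and the scavenger receptor SR-BI also binds such particles. The vessels of the brain and retina form a barrier, and they are known for passing selected lipids by dedicated carriers such as the lysophospholipid transporter *Mfsd2a*.

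Each captured mRNA carried a unique molecular identifier (UMI), and levels are counts per 1e6 UMIs of the same cells (CPM). Of 1984 P6 barcodes, 1424 passed a filter on genes, mitochondrial share and UMIs of the contaminant genes *Hbb-bt*, *Neurod1* and *Cd63*, as did 1644 of 2141 at P15, and they are called filtered cells here. The limits are those the study states, read here as limits on genes per cell, and the cells kept are not the study's own set: 1399 of the 1560 P6 cells that the study labelled passed. The median depth was 4985 UMIs in P6 and 4214 UMIs in P15 filtered cells. The 9 endothelial markers, led by the junction gene *Cldn5*, were all detected and summed to 9344 CPM at P6 and 14703 CPM at P15. Markers of other cells were also higher at P15. In filtered cells, 9 pericyte markers summed to 13.6 CPM at P6 and 334 CPM at P15, and 9 retinal neural markers to 13.2 and 61.7 CPM. The microglia list summed to 3.40 and 8.82 CPM, and 5 erythroid markers to 22.6 and 173 CPM. The macroglia list summed to 375 and 1258 CPM, of which *Glul* gave 366 and 1161 CPM. *Glul* was itself highest in the labelled Arterial and Cap-Arterial cells, and the sum mainly follows it. The next highest genes of the list at P15 were *Rlbp1*, from 1.31 to 63.6 CPM, and *Aldoc*, from 0.654 to 20.4 CPM. Both libraries shared 7 barcode sequences, and *Xist* and Y-linked UMIs stood together in 25 P6 and 24 P15 barcodes. Among filtered cells, 246 at P6 and 96 at P15 had *Xist* and no Y-linked UMI. Y-linked and no *Xist* UMIs were found in 339 and 821, so the balance of the sexes also differed between the libraries. Over the 12929 genes with at least 20 UMIs, the median ratio of P15 to P6 was 1.09 (0.13 on the log2 scale), and the ratios below can be read against it.

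Of the 10 genes, 4 were well represented in the endothelial cells of both libraries, and the other 6 were at or near the detection limit. *Apoe*, *Lrp8*, *Scarb1* and *Gpihbp1* each had between 366 and 4525 UMIs in the filtered cells of a library. *Lpl*, *Fabp5*, *Fabp7*, *Fabp4*, *Vldlr* and *Cd36* had between 0 and 29 UMIs in the same cells. Of the 7 genes with at least 20 UMIs over both libraries, none was 2-fold higher at P15, beside 9.41% of all genes tested, and 1 (*Fabp7*) was 2-fold lower, beside 7.05% of all genes tested. At 1.5-fold, 2 genes (*Apoe* and *Scarb1*) were higher, beside 21.2% of all genes, and 2 (*Fabp5* and *Fabp7*) were lower, beside 13.4%. With 7 genes measured, no departure of the list from these shares was read.

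**Figure D1:**
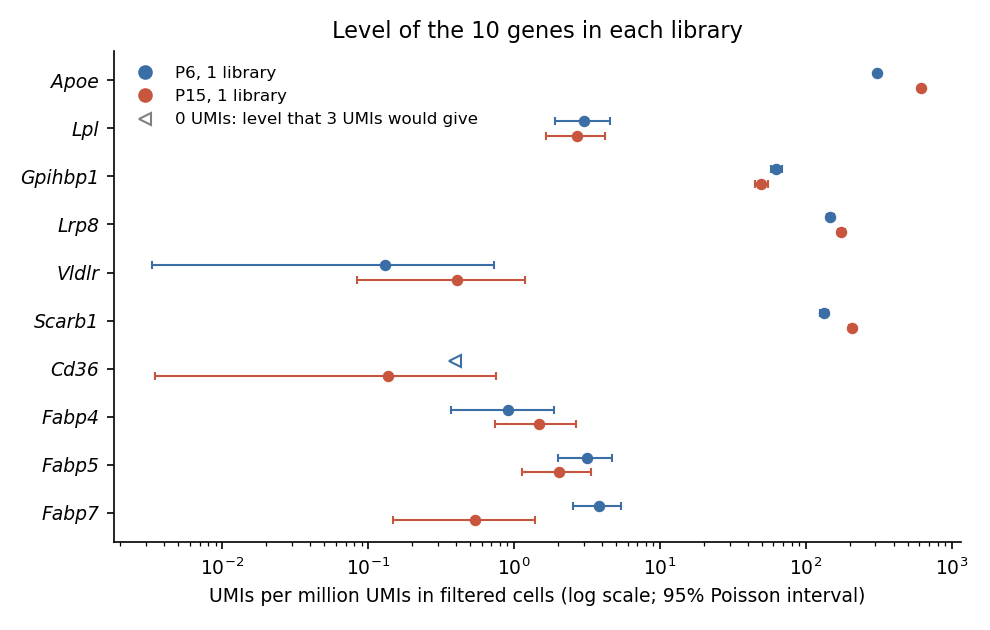
CPM in filtered cells (log axis) for each gene at P6 (blue, 1424 cells) and P15 (red, 1644 cells), with exact 95% Poisson intervals that cover counting error only. *Apoe*, *Lrp8*, *Scarb1* and *Gpihbp1* lay between 49.7 and 614 CPM, and the other 6 genes were all below 4 CPM. The open triangle is *Cd36* at P6, which had 0 UMIs and is drawn at the level that 3 UMIs would give, 0.392 CPM.

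*Apoe* encodes apolipoprotein E, a ligand by which lipoproteins bind receptors of the lipoprotein receptor family, and lies on the minus strand of chromosome 7 (GRCm38, 19696109 to 19699188). It was the gene of the 4 with the largest difference between the libraries. Filtered cells held 2366 *Apoe* UMIs at P6, or 309 CPM (95% interval 297 to 322), and 4525 UMIs at P15, or 614 CPM (596 to 632). The P15 to P6 ratio was 1.98 (1.89 to 2.09), which exceeded that of 90.4% of the genes tested and was 1.82 times the median ratio of all genes. Over the 456 P6 and 90 P15 cells without a UMI of another cell type's markers it was 3.15 (2.61 to 3.79). That set drops every cell with a *Glul* UMI, and with *Glul* allowed (1100 and 356 cells) the ratio was 2.06. In single cells, 786 of the 1424 P6 cells and 518 of the 1644 P15 cells had no *Apoe* UMI. The gene was spread unevenly: the 58 P6 cells with 10 or more *Apoe* UMIs, 4.07% of the cells, held 35.7% of its UMIs, and the 94 such cells at P15, 5.72%, held 31.6%. After each cell was thinned to 3000 UMIs, which left out 179 P6 and 481 P15 cells that were shallower, *Apoe* was found in 36.6% of P6 cells (33.9 to 39.4%) and 62.9% of P15 cells (60.0 to 65.6%). Without thinning these shares were 44.8% and 68.5%.

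Macroglia and microglia are strong sources of apolipoprotein E, so their markers were read beside it. The Müller glia gene *Rlbp1* was at 1.31 CPM in P6 and 63.6 CPM in P15 filtered cells. At P15, the 1361 cells with no *Rlbp1* UMI (median depth 3985 UMIs) held *Apoe* at 621 CPM (601 to 641), the 241 cells with 1 or 2 *Rlbp1* UMIs at 588 CPM (547 to 632) and the 42 cells with 3 or more at 585 CPM (493 to 690). The intervals of these 3 groups overlapped. The P15 to P6 ratio over cells without an *Rlbp1* UMI had an interval from 1.90 to 2.11, but *Rlbp1* is sparse, and a cell with no UMI of it can still hold glial RNA. The 34 P6 barcodes with at least 3 macroglia markers (median depth 9797 UMIs), 4 of which passed the filter, held *Apoe* at 752 CPM (674 to 837), 85.3% had a UMI, and together they held 9.38% of all *Apoe* UMIs. The 161 such barcodes at P15, 84 of which passed, held it at 680 CPM (636 to 726) with 13.0% of all *Apoe* UMIs. Barcodes with at least 3 microglia markers were few, 4 at P6 and 10 at P15, with *Apoe* at 1102 CPM and 1386 CPM, and they held 1.68% and 1.74% of all *Apoe* UMIs. In the 67 P6 barcodes with at least 3 retinal neural markers (median depth 4498 UMIs), all of which the filter removed, *Apoe* was at 554 CPM (496 to 617) and 65.7% of the barcodes had a UMI, so at P6 the share of cells with an *Apoe* UMI was not particular to endothelium. How much of the *Apoe* signal came from RNA outside the endothelial cells was not tested.

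Cells were then read by the study's own clusters, which were labelled for 1560 P6 cells and, in the copy used here, for the first 438 P15 cells. The filter kept 409 of the P15 cells, and all labelled cells were used. Clusters were made from the expression of the same cells, and *Apoe* was among the genes by which the study named venous clusters, so its levels by cluster are a description. At P6 *Apoe* was highest in Cap-Arterial (510 CPM, 162 cells) and Cap-Venous cells (460 CPM, 414 cells), which did not differ beyond counting error (ratio 1.11, 0.991 to 1.24). Cap-Venous cells stood above Venous cells beyond counting error (interval of the ratio 1.21 to 1.89). That interval leaves out the spread between cells. After thinning, the variance of *Apoe* UMIs per cell was 3.97 times the mean in Cap-Venous and 4.71 times in Venous cells. In Venous cells, 1 of 42 held 16 of the 87 UMIs. Whether the 2 clusters differ beyond that spread was not tested. Venous, Arterial, Stalk and Capillary cells lay at 306, 304, 271 and 231 CPM, with no step between neighbours among them larger than counting error. Proliferative, Primitive and Tip cells were lowest at 118, 114 and 92.1 CPM, and the step from Capillary to Proliferative was 1.96-fold (1.55 to 2.47). At P15 Cap-Venous cells alone led, at 839 CPM (776 to 907, 134 cells), which was 1.27-fold (1.10 to 1.47) the 660 CPM of Stalk cells. Primitive and Capillary cells held 565 and 539 CPM, Cap-Arterial 459 CPM, Proliferative 339 CPM, Tip 320 CPM and Arterial 245 CPM (12 UMIs in 11 cells). Only 2 labelled P15 cells were Venous, and that cluster was left out of the comparisons at P15.

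**Figure D2:**
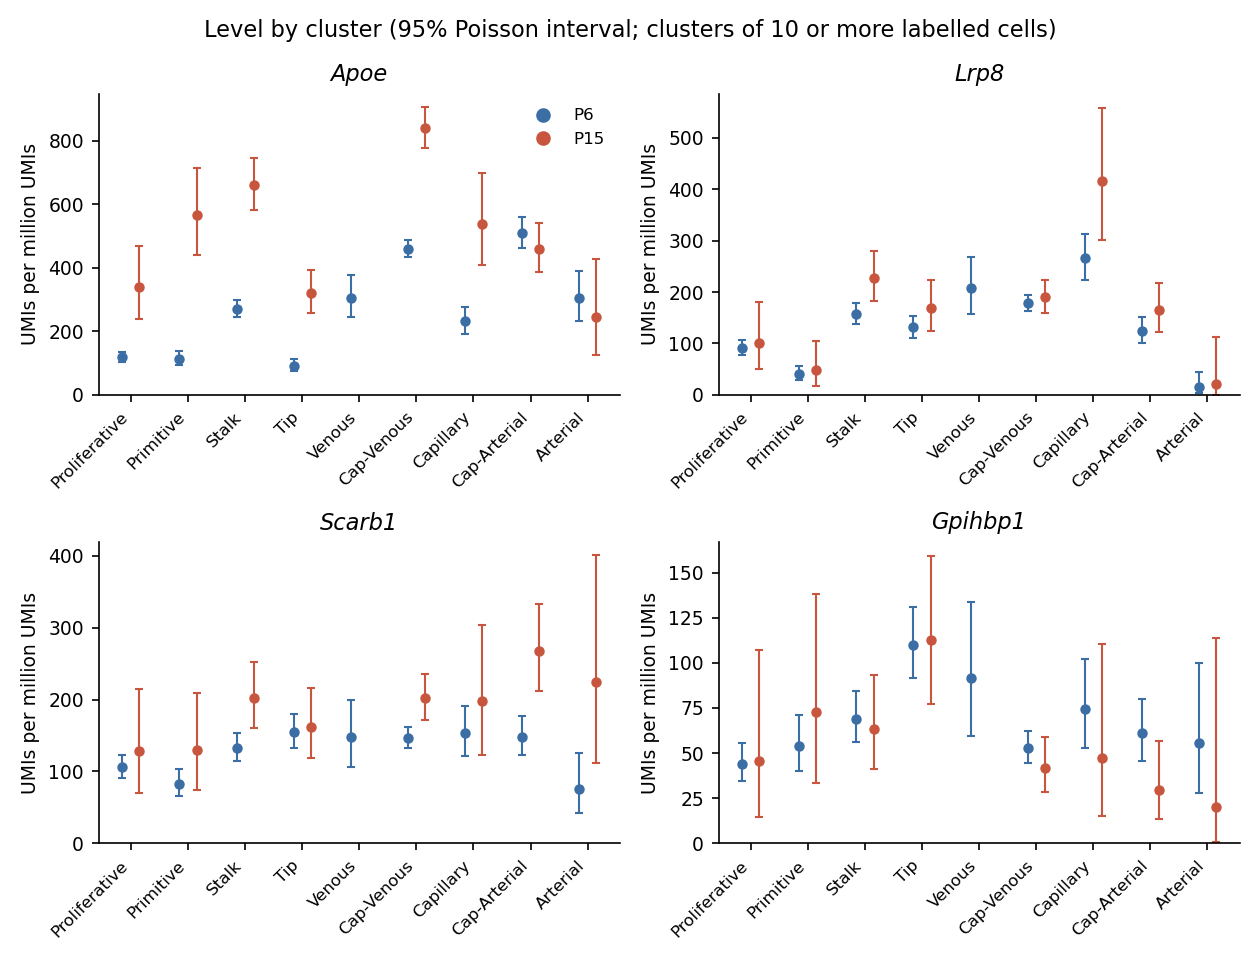
CPM (linear axes from 0) of *Apoe*, *Lrp8*, *Scarb1* and *Gpihbp1* in each cluster of at least 10 labelled cells at P6 (blue) and P15 (red), with exact 95% Poisson intervals. *Apoe* was higher at P15 in 6 of 8 clusters and not in Cap-Arterial or Arterial cells, *Lrp8* was highest in Capillary and lowest in Arterial cells at both ages, and *Gpihbp1* was highest in Tip cells at both ages. The *Gpihbp1* level of Tip cells did not differ beyond counting error from that of the next cluster at either age.

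Within clusters the P15 to P6 difference in *Apoe* was not uniform. The ratio was highest in the 3 clusters with the lowest P6 levels. It was 4.97 (3.63 to 6.78) in Primitive cells, 3.48 (2.60 to 4.66) in Tip cells and 2.87 (1.96 to 4.09) in Proliferative cells. The P6 level is its denominator, so a low P6 level raises this ratio. In CPM, Primitive cells went from 114 to 565, Tip cells from 92.1 to 320 and Proliferative cells from 118 to 339. Stalk, Capillary and Cap-Venous cells went from 271 to 660, 231 to 539 and 460 to 839. The steps of Tip and Proliferative cells were the smallest of these 6. By ratio, Stalk, Capillary and Cap-Venous cells followed with 2.44 (2.08 to 2.86), 2.33 (1.67 to 3.22) and 1.83 (1.66 to 2.01). The interval lay above 1 in these 6 of 8 clusters. That of Proliferative cells overlapped those of Stalk, Capillary and Cap-Venous cells. In Cap-Arterial cells the ratio was 0.901 (0.739 to 1.09), from 426 UMIs at P6 and 139 at P15, and in Arterial cells it was 0.805 (0.394 to 1.51), from 60 and 12 UMIs. In the order of levels, Cap-Arterial cells went from the first place at P6 to the fifth at P15, and Arterial cells from the fourth to the last. The P6 Arterial place rests on 1 of the 40 cells, which held 23 of the 60 UMIs: without it the ratio to other labelled cells was 0.695 (0.488 to 0.960), against 1.08 (0.825 to 1.40) with it. Over cells without an *Rlbp1* UMI the Cap-Arterial ratio was 0.912 (0.744 to 1.11) and the Cap-Venous ratio 1.91 (1.72 to 2.12). *Rlbp1* at P15 was also highest in Cap-Venous cells (90.4 CPM) among clusters of at least 10 cells and had no UMI in Arterial cells. It was at 64.6 CPM in Primitive cells and between 36.3 and 38.7 CPM in Cap-Arterial, Proliferative, Capillary, Stalk and Tip cells. The part of glial RNA in the differences between clusters was not tested.

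**Figure D3:**
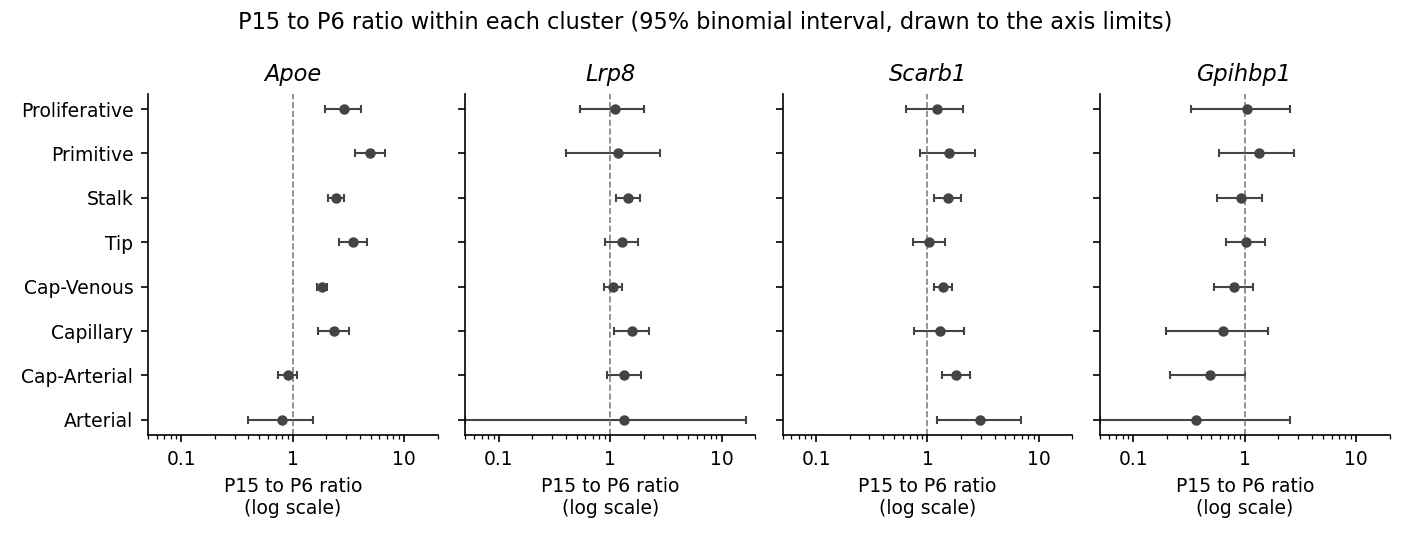
Ratio of P15 to P6 CPM (log axes) within each cluster that had at least 10 labelled cells in each library, with 95% conditional binomial intervals that cover counting error only and the dashed line at 1. *Apoe* ratios ran from 0.805 in Arterial to 4.97 in Primitive cells, while *Lrp8* and *Scarb1* points lay above 1 in all 8 clusters and *Gpihbp1* points in 3 of 8.

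*Gpihbp1*, on chromosome 15 (75596628 to 75599481, plus strand), encodes the protein that carries lipoprotein lipase across capillary endothelium and holds it at the luminal surface. It was lower in the P15 library over filtered cells, and this direction depended on the cells included. Filtered cells held 480 UMIs at P6, or 62.8 CPM (57.3 to 68.6), and 366 at P15, or 49.7 CPM (44.7 to 55.0), a ratio of 0.791 (0.689 to 0.908) and 0.724 of the median ratio of all genes. Over cells without a UMI of another cell type's markers the ratio was 1.35 (0.821 to 2.12, from 22 P15 UMIs), and with *Glul* allowed 0.938 (0.708 to 1.23). After thinning, 13.3% of P6 cells (11.5 to 15.3%) and 11.2% of P15 cells (9.42 to 13.1%) had a UMI, and these intervals overlapped. Without thinning the shares were 20.2% and 15.4%. The 67 P6 barcodes with at least 3 retinal neural markers (median depth 4498 UMIs) held 1 *Gpihbp1* UMI, or 1.69 CPM (0.0429 to 9.44), and 1.49% of them had a UMI. At P15 the 22 such barcodes, 5 of which passed the filter, held *Gpihbp1* at 55.8 CPM (27.9 to 99.9), near the level of filtered cells, and 31.8% had a UMI (median depth 6041 UMIs).

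By cluster, *Gpihbp1* was highest in Tip cells, the leading cells of growing sprouts, in both libraries. It stood at 110 CPM (91.4 to 131) in 170 P6 Tip cells and 113 CPM (77.0 to 159) in 46 P15 Tip cells, 1.92-fold (1.56 to 2.34) and 2.43-fold (1.57 to 3.69) the level in all other labelled cells. Against Stalk cells, their neighbours in the sprout, the ratio was 1.59 (1.21 to 2.10) at P6 and 1.78 (1.02 to 3.13) at P15. In the order of P6 levels, Venous (91.4 CPM, 26 UMIs) and Capillary cells (74.6 CPM) came next and Proliferative cells last (44.2 CPM), and no 2 neighbours differed beyond counting error. At P15, Tip cells did not differ beyond counting error from Primitive cells, which came next (72.6 CPM, 9 UMIs, ratio 1.55, 0.723 to 3.69). No *Gpihbp1* UMI was left in P15 Tip cells once cells with UMIs of other cell types' markers except *Glul* were dropped. The P6 Arterial level of 55.7 CPM came from 11 UMIs in 1 of 40 cells. Within clusters, only Cap-Arterial cells had an interval below 1, from 51 UMIs at P6 and 9 at P15 (ratio 0.487, 0.211 to 0.999). In Tip cells the ratio was 1.02 (0.672 to 1.52).

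A larger part of *Gpihbp1* than of *Apoe*, *Lrp8* or *Scarb1* lay in P6 barcodes that the filter removed for *Cd63*. At P6, 166 barcodes with a *Cd63* UMI and no *Neurod1* UMI held 27.0% of all *Gpihbp1* UMIs, 5.33% of *Apoe*, 7.18% of *Lrp8* and 9.19% of *Scarb1*, beside 10.6% of all UMIs. The level there was 197 CPM (175 to 221), and 44.0% of the barcodes had a *Gpihbp1* UMI (median depth 6828 UMIs), with at most 27 in 1 barcode. The tip cell gene *Esm1* was at 194 CPM in these barcodes and 31.4 CPM in filtered P6 cells, *Cldn5* at 3904 and 5585 CPM, and the pericyte gene *Rgs5* at 272 and 8.76 CPM. The *Rgs5* UMIs lay in 10 of the 166 barcodes, whereas *Cldn5* was found in 162. At P15 the 192 such barcodes held *Gpihbp1* at 47.9 CPM (36.2 to 62.2), near the 49.7 CPM of filtered cells. The filter on *Cd63* thus removed P6 barcodes with high *Gpihbp1* and *Esm1* levels, and over all barcodes *Gpihbp1* was at 77.1 CPM at P6 and 47.6 CPM at P15, a ratio of 0.618 (0.557 to 0.685).

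*Lpl*, the lipase that GPIHBP1 binds, was barely detected in the endothelial cells themselves. It lies on chromosome 8 (68880491 to 68907448, plus strand). The P6 filtered cells held 23 UMIs in 20 of 1424 cells, or 3.01 CPM (1.91 to 4.51), and the P15 filtered cells 20 UMIs in 20 of 1644 cells, or 2.71 CPM (1.66 to 4.19). The ratio was 0.902 (0.470 to 1.72), so a difference was not detectable at this depth. Among labelled P6 cells, 10 of the 29 UMIs were in Cap-Venous, 8 in Proliferative and 5 in Cap-Arterial cells. At P15, 4 of the 9 labelled UMIs were in Cap-Arterial cells.

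*Lrp8* encodes a receptor of the lipoprotein receptor family that binds apolipoprotein E and reelin, also called apolipoprotein E receptor 2. It lies on the plus strand of chromosome 4 (107802261 to 107876840), with 2 annotated antisense genes, *Lrp8os1* and *Lrp8os2*, on the opposite strand. Filtered cells held 1126 UMIs at P6, or 147 CPM (139 to 156), and 1286 at P15, or 174 CPM (165 to 184). The ratio of 1.19 (1.09 to 1.28) was 1.08 times the median of all genes, close to that of a typical gene. Over cells without a UMI of another cell type's markers, a set that drops every cell with a *Glul* UMI, it was 1.78 (1.32 to 2.37). After thinning, 31.7% of P6 cells (29.1 to 34.4%) and 37.7% of P15 cells (35.0 to 40.6%) had a UMI, against 46.9% and 48.5% without thinning. In the 67 P6 barcodes with retinal neural markers 32.8% had an *Lrp8* UMI, at 52.5 CPM (35.7 to 74.5).

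The level of *Lrp8* differed more between clusters than between ages. At P6 it was highest in Capillary cells at 266 CPM (224 to 314), which was 2.02-fold (1.68 to 2.41) the level in other labelled cells. Venous, Cap-Venous and Stalk cells followed at 207, 178 and 157 CPM, Tip and Cap-Arterial cells at 131 and 124 CPM, and Proliferative and Primitive cells at 92.0 and 41.4 CPM. Arterial cells were lowest, with 3 UMIs in 40 cells, or 15.2 CPM (3.13 to 44.4), a ratio of 0.107 (0.0221 to 0.314) to the other labelled cells. The steps in the order beyond counting error were from Proliferative to Primitive (2.22-fold, 1.55 to 3.24) and from Cap-Arterial to Proliferative (1.35-fold, 1.04 to 1.75), and the other neighbours, Primitive and Arterial included (2.73-fold, 0.867 to 13.8), did not differ beyond it. Cap-Arterial cells were themselves at 0.698 (0.559 to 0.865) of Cap-Venous cells at P6.

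The P15 order of *Lrp8* had the same ends. Capillary cells were at 416 CPM (302 to 559) from 44 UMIs, 1.83-fold (1.24 to 2.65) the 228 CPM of Stalk cells that came next. Primitive cells were at 48.4 CPM from 6 UMIs, and Arterial cells had 1 UMI in 11 cells, 20.4 CPM (0.516 to 114). After thinning, 47.3% of 91 P6 Capillary cells (36.7 to 58.0%) and 9.38% of 32 P6 Arterial cells (1.98 to 25.0%) had an *Lrp8* UMI, and without thinning these shares were 52.3% and 7.50%. The Capillary cells were also the shallowest cluster at P6, with a median of 3204 UMIs, and 58 of them were left out by thinning. Within clusters the P15 to P6 ratio of *Lrp8* was above 1 in 8 of 8, from 1.07 in Cap-Venous to 1.57 in Capillary cells, and the interval lay above 1 in Stalk (1.45, 1.12 to 1.86) and Capillary cells (1.57, 1.09 to 2.21). The Cap-Venous ratio and the lower bound in Capillary cells did not exceed 1.09, the median ratio of all genes over filtered cells. Ratios of all genes within clusters were not computed.

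*Vldlr*, the very low density lipoprotein receptor (chromosome 19, 27216484 to 27254231, plus strand), was close to absent from the filtered cells. They held 1 UMI at P6, or 0.131 CPM (0.00331 to 0.729), and 3 at P15, or 0.407 CPM (0.0839 to 1.19), and the ratio of 3.11 had an interval from 0.250 to 163. Of the 27 *Vldlr* UMIs in the P6 library, 24 lay in the 98 barcodes with a *Neurod1* UMI, and these barcodes held 6.19% of all P6 UMIs. The 67 barcodes with at least 3 retinal neural markers also held 24, at 40.7 CPM (26.1 to 60.5), and the 34 with at least 3 macroglia markers held 19, at 42.5 CPM (25.6 to 66.4).

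*Scarb1* encodes SR-BI, the scavenger receptor for high density lipoprotein, and lies on the minus strand of chromosome 5 (125277087 to 125341094), where a gene model of unverified type, *Gm42633*, overlaps it on the same strand. It was the second gene that was at least 1.5-fold higher at P15 over filtered cells. The filtered cells held 1019 UMIs at P6, or 133 CPM (125 to 142), and 1527 at P15, or 207 CPM (197 to 218), a ratio of 1.55 (1.44 to 1.68) and 1.42 times the median of all genes. Over cells without a UMI of another cell type's markers it was 1.01 (0.681 to 1.46, from 32 P15 UMIs), and with *Glul* allowed 1.43 (1.22 to 1.66). After thinning, 31.6% of P6 cells (29.1 to 34.3%) and 45.4% of P15 cells (42.5 to 48.3%) had a UMI, against 47.3% and 55.1% without thinning. It was not particular to endothelium at P6: the 67 neural marker barcodes had it at 114 CPM (88.0 to 144), and 43.3% of them had a UMI.

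By cluster, *Scarb1* at P6 lay between 133 and 156 CPM in 6 of the 9 (Tip, Capillary, Cap-Arterial, Venous, Cap-Venous and Stalk), and no neighbours among them differed beyond counting error. Proliferative, Primitive and Arterial cells were lower at 106, 82.8 and 75.9 CPM. At P15 Cap-Arterial cells (268 CPM, 212 to 333) and Arterial cells (224 CPM, 112 to 401, 11 UMIs) came first. Proliferative and Primitive cells were lowest at 128 and 129 CPM, and no neighbours in the P15 order differed beyond counting error. Against all other labelled P15 cells, Cap-Arterial cells were at 1.44 (1.11 to 1.84) and Arterial cells at 1.14 (0.564 to 2.06). Within clusters the P15 to P6 ratio was above 1 in 8 of 8, and its interval lay above 1 in Arterial (2.95, 1.23 to 6.88), Cap-Arterial (1.80, 1.35 to 2.41), Stalk (1.52, 1.15 to 1.99) and Cap-Venous cells (1.38, 1.14 to 1.67). In Tip cells it was 1.04 (0.735 to 1.45). Of the 2 genes at least 1.5-fold higher at P15 over all filtered cells, the arterial clusters had the highest *Scarb1* ratios and the lowest *Apoe* ratios. The Arterial values rest on 11 labelled P15 cells, and the *Scarb1* intervals of the arterial clusters overlapped those of the other clusters.

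*Cd36*, the fatty acid translocase (chromosome 5, 17781690 to 17888801, minus strand), had 0 UMIs in the 1424 filtered P6 cells, which allows a level of up to 0.392 CPM, and 1 UMI in the 1644 filtered P15 cells, 0.136 CPM (0.00344 to 0.756). Over all barcodes it had 1 UMI at P6 and 2 at P15. Levels below these limits were not detectable in either library.

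The 3 fatty acid binding proteins, small cytosolic carriers of fatty acids, had few UMIs in endothelial cells, and most *Fabp5* and *Fabp7* UMIs lay elsewhere. *Fabp7* (chromosome 10, 57784881 to 57788450, plus strand), known from neural progenitors and glia, had 762 UMIs in the P6 library, of which 707 (92.8%) lay in the 98 *Neurod1* barcodes at 818 CPM (759 to 881). Barcodes overlapped between marker groups: the 34 P6 barcodes with at least 3 macroglia markers held 555 *Fabp7* UMIs (72.8%) at 1242 CPM (1141 to 1350), and the 67 with at least 3 retinal neural markers held 705 (92.5%) at 1194 CPM (1108 to 1286). The filtered P6 cells held 29 of them in 25 cells, or 3.79 CPM (2.54 to 5.45), and the filtered P15 cells 4, or 0.543 CPM (0.148 to 1.39). The ratio was 0.143 (0.0366 to 0.408). In labelled P6 cells the 26 *Fabp7* UMIs lay in 26 different cells, with 1 UMI each, over all clusters but Venous, and the 438 labelled P15 cells held 0, which allows up to 1.40 CPM. Over all barcodes *Fabp7* was at 54.6 CPM at P6 and 1.98 CPM at P15, so the level in filtered cells and the level in the whole library were lower together at P15.

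*Fabp5* (chromosome 3, 10012548 to 10016607, plus strand), the epidermal fatty acid binding protein, had 216 UMIs at P6 and 125 at P15 over all barcodes, and the barcodes that held them differed between the libraries. At P6, 162 UMIs (75.0%) lay in the *Neurod1* barcodes at 188 CPM (160 to 219), and 107 (49.5%) in the macroglia marker barcodes at 239 CPM (196 to 289). At P15, 104 (83.2%) lay in the 192 barcodes with *Cd63* and no *Neurod1*, and 112 (89.6%) in the 157 barcodes with at least 3 pericyte markers, at 108 CPM (89.3 to 130). The 12 barcodes with at least 3 pericyte markers at P6 held 22 *Fabp5* UMIs, 324 CPM (203 to 490). The filtered cells held 24 at P6, or 3.14 CPM (2.01 to 4.67), and 15 at P15, or 2.04 CPM (1.14 to 3.36), and the ratio of 0.648 (0.316 to 1.29) had an interval that held 1.

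*Fabp4* (chromosome 3, 10204088 to 10208576, minus strand), the fatty acid binding protein of adipocytes and of the endothelium of several peripheral organs, was rare in all barcodes. The filtered cells held 7 UMIs in 4 cells at P6, or 0.915 CPM (0.368 to 1.89), and 11 UMIs in 6 cells at P15, or 1.49 CPM (0.745 to 2.67), a ratio of 1.63 (0.577 to 4.96). Of the labelled UMIs, 3 of 7 at P6 and 3 of 4 at P15 lay in Arterial cells, which were 40 of 1560 and 11 of 438 labelled cells. That is 15.2 CPM (3.13 to 44.4) and 61.1 CPM (12.6 to 179) in 2 cells each, too few for a comparison.

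**Figure D4:**
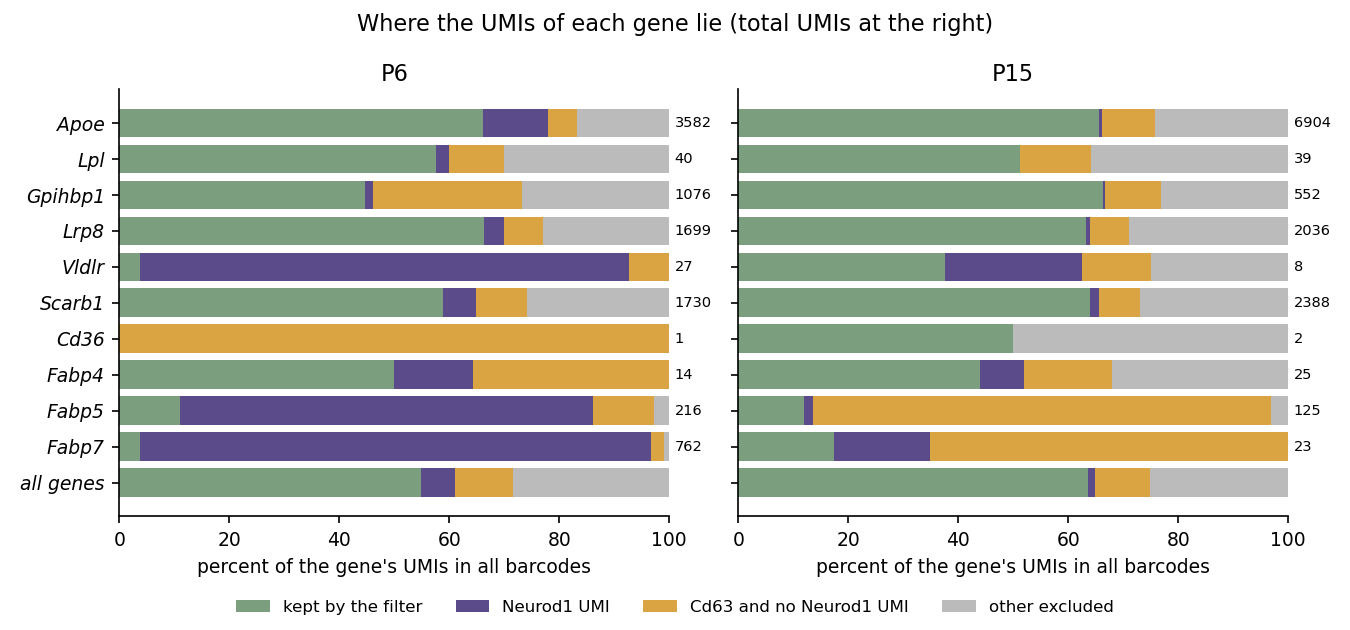
Percent of each gene's UMIs that lay in filtered cells (green), in barcodes with a *Neurod1* UMI (purple), in barcodes with *Cd63* and no *Neurod1* UMI (yellow) and in other excluded barcodes (grey), with each gene's total UMIs at the right and all genes as the last bar. At P6 the *Neurod1* barcodes held 6.19% of all UMIs and 92.8% of *Fabp7*, 88.9% of *Vldlr* and 75.0% of *Fabp5*, and at P15 the *Cd63* barcodes held 83.2% of *Fabp5*.

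Detection of the 4 well detected genes in the same cell was counted at equal depth. After thinning, 28.0% of 1245 P6 cells had none of *Apoe*, *Lrp8*, *Scarb1* and *Gpihbp1*, 40.2% had 1, 22.8% had 2, 8.43% had 3 and 0.562% (7 cells) had all 4. At P15, 12.1% of 1163 cells had none, 35.2% had 1, 37.5% had 2, 13.8% had 3 and 1.38% (16 cells) had all 4. Counts are sparse at this depth, and whether the genes met more or less often than their own shares give was not tested. Over the 17 groups of cluster and library with at least 10 cells, the Pearson correlation of log2(CPM + 10) was 0.51 between *Lrp8* and *Scarb1*, 0.48 between *Apoe* and *Scarb1*, 0.33 between *Apoe* and *Lrp8*, 0.31 between *Gpihbp1* and *Lrp8*, -0.20 between *Apoe* and *Gpihbp1*, and -0.30 between *Gpihbp1* and *Scarb1*. The groups share 2 libraries and their depths, and these values are descriptions of 17 points.

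Among 6595 genes with at least 200 UMIs in labelled cells, the patterns most like that of *Apoe* over these 17 groups included those of *Cd320*, the receptor for transcobalamin (r = 0.87), and *Fcgrt*, the neonatal Fc receptor (r = 0.86). For *Lrp8* the nearest were *Hmcn1*, which encodes hemicentin 1 of the extracellular matrix, *Slc39a10*, a zinc transporter, and *Adgrl3*, a latrophilin, with r between 0.92 and 0.94. For *Gpihbp1* they were *Sirpa*, the receptor for CD47, *Trf*, which encodes transferrin, and *Cd82*, a tetraspanin, with r between 0.88 and 0.89. For *Scarb1* they were *Ifnar2*, a subunit of the type I interferon receptor, *Gm10033* and *Lmbrd1*, a protein of lysosomal cobalamin export, with r between 0.88 and 0.93. With the 9 P6 clusters alone, none of the genes named here was among the nearest 3.

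The wider pathways were read from 6 lists of 71 genes, of which 52 had at least 20 UMIs. Over these, 8 were at least 2-fold higher at P15, beside 9.41% of all genes, and 3 at least 2-fold lower, beside 7.05%. The median ratio was 1.30, beside 1.09 for all genes tested. These ratios are over filtered cells, in which markers of other cells were also higher at P15. The part of RNA from other cells in them was not tested. The partners of lipoprotein lipase and other lipases had the highest median, 1.82, with 4 of 8 genes at least 2-fold higher and none lower. These were *Pltp*, the phospholipid transfer protein, from 5.62 to 35.3 CPM (ratio 6.27, 4.53 to 8.88), *Mgll*, the monoacylglycerol lipase, from 8.76 to 54.0 CPM (6.16, 4.75 to 8.11), *Lipe*, the hormone-sensitive lipase, from 19.9 to 44.8 CPM (2.25, 1.85 to 2.75), and *Angptl4*, an inhibitor of lipoprotein lipase, from 164 to 360 CPM (2.19, 2.05 to 2.35). Lowest on this list were *Pcsk5*, a protease that cleaves lipases, at 0.638 (0.367 to 1.09) and *Lipc*, hepatic lipase, at 0.859 (0.653 to 1.13). *Mgll* at P6 was itself highest in Arterial and Cap-Arterial cells, at 50.6 and 44.3 CPM.

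The lipoprotein receptors had the lowest median, 0.856, with 1 of 8 genes at least 2-fold higher and 2 lower. *Mylip*, a ubiquitin ligase for lipoprotein receptors, went from 4.18 to 16.7 CPM (3.99, 2.68 to 6.08). Among those 2-fold lower, and named after its values were seen, was *Stab2*, a scavenger receptor of sinusoidal endothelium, with 20 UMIs at P6 and 3 at P15 (ratio 0.156, 0.0296 to 0.525). *Lrp4* had a ratio of 0.779 (0.724 to 0.837) and *Lrp6* of 1.34 (1.08 to 1.66).

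On the other 4 lists most genes stayed within 2-fold. Apolipoproteins and sterol efflux had 0 of 8 past 2-fold in either direction, with *Apod*, another apolipoprotein, next to the limit at 1.98 (1.86 to 2.11), *Clu* at 1.87 (1.22 to 2.91), and *Abca1*, the cholesterol exporter, lowest at 0.881 (0.791 to 0.980) beside *Apoo* at 0.942. *Clu* also served above as a gene of the macroglia list. Regulators of fatty acid uptake had 2 of 8 higher: *Tcf15*, a transcription factor of heart endothelium known for fatty acid uptake, from 25.1 to 60.4 CPM (2.40, 2.03 to 2.86), and *Nr1h3*, the sterol sensor LXR alpha, from 4 to 41 UMIs (10.6, 3.85 to 40.9). *Foxo1* was at 1.53 and *Nr1h2* at 1.38, while *Vegfb*, a growth factor linked to endothelial fatty acid uptake, was lowest at 0.501 (0.307 to 0.799). Fatty acid carriers had 1 of 8 higher, the fatty acid transporter *Slc27a1* at 2.11 (1.37 to 3.30), and 1 lower, the acyl-CoA synthetase *Acsl4*, from 46.3 to 21.0 CPM (0.454, 0.374 to 0.550), with *Slc27a3* at 0.579 and *Acsl3* at 1.36. *Mfsd2a*, chosen after its values were seen, stayed at 504 and 514 CPM (1.02, 0.974 to 1.07). Fatty acid oxidation and storage had 0 of 12 past 2-fold, from *Cpt1a* at 0.853 and *Acadl* at 0.980 to *Hadhb* at 1.59 and *Pnpla2*, the adipose triglyceride lipase, at 1.71.

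**Figure D5:**
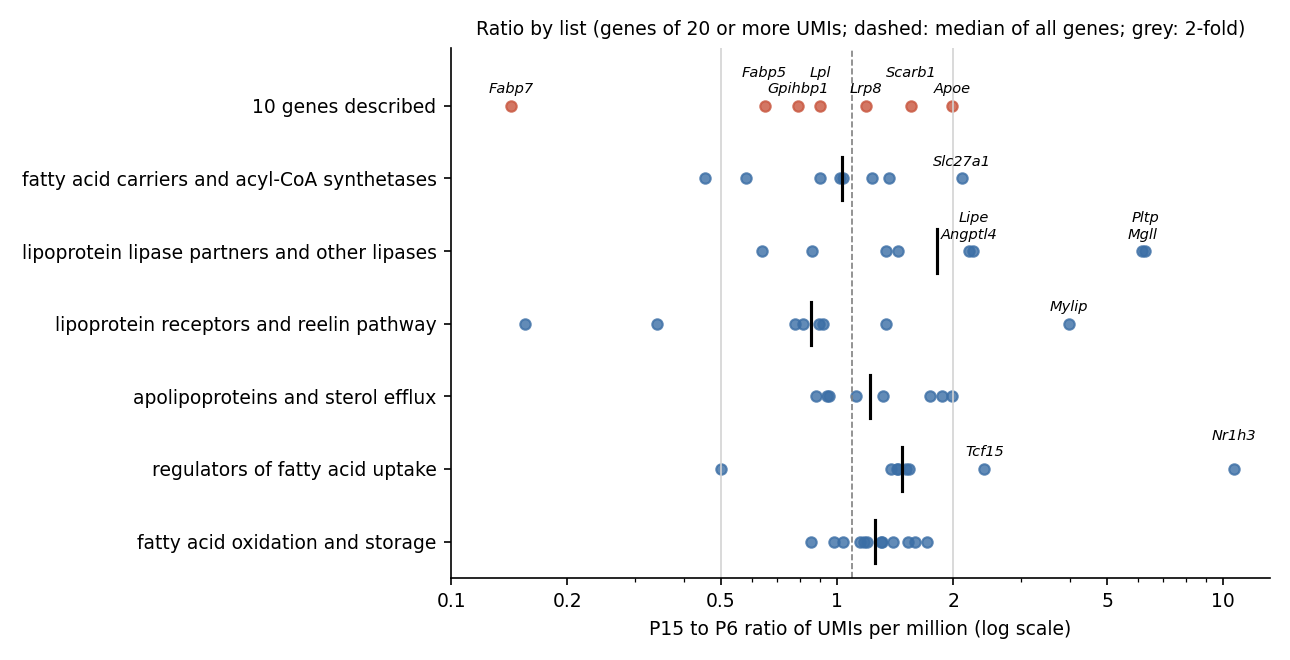
Ratio of P15 to P6 CPM in filtered cells (log axis) for the genes of at least 20 UMIs: the 7 such genes of the 10 described (red) and the 52 genes of 6 pathway lists (blue), with the median of each pathway list as a black bar, the median of all genes (1.09) dashed and 2-fold limits in grey. *Pltp*, *Mgll* and *Nr1h3* stand farthest to the right, and *Fabp7* farthest to the left of the labelled points, which are the described genes and pathway genes at least 2-fold higher.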

How the data were processed

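Endothelial cells of P6 and P15 retinas (1 library each) were profiled by droplet single-cell RNA sequencing. The authors deposited UMI counts per Ensembl gene and barcode, without normalization. The submitters' processing notes name mm10 and Seurat 3.0, and the aligner and strand setting of these counts are not given in the sources used here. Counting on strand would matter for *Lrp8*. Symbols were matched by Ensembl ID, and duplicate symbols were summed. Rows without a symbol (39 at P6 and 40 at P15, 0.0145% and 0.0146% of UMIs) were left out. Coordinates are from GENCODE M21 (GRCm38), matched by ID.

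The deposited P6 counts sum to 13958124 UMIs and those of P15 to 11589641 UMIs. A filter was built from the limits the study states, which it gives as RNA counts and which were read here as genes per cell: 200 to 3500 genes, mitochondrial share up to 5%, and *Hbb-bt*, *Neurod1* and *Cd63* each at 0. Cluster labels came from the study's source data, whose copy holds the first 438 P15 cells. No doublet caller was run, and barcodes with both *Xist* and Y-linked UMIs were counted.

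For each library or cluster, a gene's summed UMIs were expressed as counts per 1e6 summed UMIs (CPM). All intervals are at 95%: levels by the exact Poisson method, shares by Clopper-Pearson, ratios by the conditional binomial. PCR copies were collapsed by UMI, and intervals cover counting error only, not the spread between cells. A count of 0 was bounded with 3 counts. Genes with at least 20 UMIs over both libraries entered counts past 2-fold. With 1 library per age no test was made. Cells were thinned to 3000 UMIs without replacement. Named genes were the 10, the 3 genes of most similar pattern for each well detected one, and up to 2 at each end of a pathway list among genes with at least 50 UMIs. Genes past 2-fold on those lists, *Stab2*, *Nr1h3*, *Lipe* and *Angptl4*, were named in addition, chosen after their values were seen. A few genes that this rule names are not reported here. Members, lists and settings were chosen with earlier results of these data known. Python 3.11.15, numpy 2.4.6, scipy 1.17.1, pandas 2.3.3 and matplotlib 3.10.9 were used, and the ratio and thinning steps were tested on simulated data. Alternatives varied the cells, depth, denominator, weighting, fold and count minimum.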

Additional observations from a re-analysis of the deposited data

Results flagged for a closer look

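*Apoe* in Cap-Arterial cells stood on opposite sides of the other cells in the 2 libraries. Its level there was 1.97 times that of all other labelled cells at P6 (1.77 to 2.18) and 0.716 times at P15 (0.596 to 0.854). The difference between the ages in this ratio was not tested, since each age has 1 library. *Glul*, which led the macroglia list, was high in this cluster at both ages (1591 and 2808 CPM), and *Rlbp1* was at 1.20 and 36.3 CPM, and the part of either in the result was not tested. Without cells holding an *Rlbp1* UMI, the P15 to P6 ratio of *Apoe* within the cluster was 0.912 (0.744 to 1.11), against 0.901 (0.739 to 1.09) with them.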

How the results depend on the processing

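No paired analysis was possible because each age has 1 library. With all barcodes the P15 to P6 ratio was 2.32 for *Apoe*, 1.44 for *Lrp8* and 0.618 for *Gpihbp1*. Over labelled cells it was 2.19 for *Apoe* and 1.33 for *Lrp8*. With mitochondrial, ribosomal protein and haemoglobin genes out of the denominator it was 1.78 for *Apoe*, 1.40 for *Scarb1* and 1.07 for *Lrp8* (0.983 to 1.16). Over cells with *Xist* and no Y-linked UMI (246 at P6 and 96 at P15) it was 1.81 for *Apoe* and 0.940 for *Gpihbp1*, and over cells with Y-linked and no *Xist* UMI (339 and 821) 2.30 for *Apoe*. Clusters weighted equally gave 1.33 for *Lrp8*. Cells without any UMI of another cell type's markers (456 and 90) gave 3.15 for *Apoe*, 1.78 for *Lrp8*, 1.01 for *Scarb1* (0.681 to 1.46) and, reversed, 1.35 for *Gpihbp1* (0.821 to 2.12, from 22 P15 UMIs). That set removes cells with *Glul*, which endothelial cells express. With *Glul* allowed, chosen after seeing the data (1100 and 356 cells), the ratios were 2.06 for *Apoe*, 1.43 for *Scarb1* and 0.938 for *Gpihbp1* (0.708 to 1.23). The lower *Gpihbp1* level at P15 thus depends on the cells included, and the cause was not tested.

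The number of genes 2-fold higher at P15, 0 of 7 tested as reported, is given here beside the share of all genes tested. It was 2 of 7 at 1.5-fold (21.2%) and 2 of 9 with all barcodes (10.9%). It was 1 of 7 over labelled cells (8.78%) or without *Rlbp1* cells (9.28%), and 1 of 9 with 1 UMI in each library (14.4%). It was 1 of 4 without other marker UMIs (11.7%) or in Y-linked cells (9.72%), and 1 of 5 with *Glul* allowed (7.72%). The number 2-fold lower, 1 of 7 as reported, was 2 of 7 at 1.5-fold (13.4%), over labelled cells (8.85%) or with equal cluster weights (9.78%). With all barcodes it was 2 of 9 (9.74%). It was 0 of 4 with 100 UMIs (4.81%), thinning (6.83%), *Xist* cells (8.91%) or Y-linked cells (5.40%). Without marker UMIs it was 0 of 4 (14.1%), and with *Glul* allowed 0 of 5 (8.68%). Fewer genes reached the UMI minimum in the settings with 0, so their counts cannot be set against 1 of 7. On the pathway lists 5 genes were 2-fold lower with all barcodes, against 3.

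By cluster, the set without marker UMIs reversed *Apoe* in P6 Capillary (1.25), P6 Cap-Arterial (0.955, 6 UMIs) and P15 Cap-Venous cells (0.652, 4 UMIs) and *Lrp8* in P6 Venous cells (0.892, 5 UMIs). With *Glul* allowed, *Gpihbp1* in P15 Tip cells came to 0 UMIs. Of the alternatives for a cluster against other cells, 232 stayed inside the reported interval, 59 moved outside it and 5 reversed. For P15 to P6 ratios within a cluster, 109 stayed inside and 10 moved. For P15 to P6 ratios over filtered cells, 89 stayed inside, 31 moved and 1 reversed. Depth limits *Vldlr*, *Cd36* and *Fabp4*, for which no difference was measurable.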
